A study of Mus musculus with 12 samples.

Results

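The cytosolic ribosomal protein genes encode the protein subunits of the ribosome that works outside mitochondria. They were taken from the count table by their symbols (Rpl or Rps with a number, plus Rplp0, Rplp1, Rplp2 and Rpsa), and 85 of 16411 rows matched. Rps4l and Rpl32l are pseudogenes in the mouse annotation and were left out, which left 83 members. Of these, 77 are core genes, 46 of the large and 31 of the small subunit, and 6 are paralogs, that is, duplicated genes kept beside a core gene (Rpl3l, Rpl7l1, Rpl22l1, Rpl36al, Rpl39l and Rps27l). The study sequenced RNA of 6 mammary tumors and of benign mammary tissue, likewise 6 samples. All samples carried the MMTV-Neu-NDL-YD5 transgene, in which the MMTV promoter drives an activated form of the rat HER2 gene in mammary epithelium, so the benign group is no wild-type control. The mice were females on an FVB background with no treatment named, and the ages of single mice are not given in the sources used here. Benign tissue was mammary tissue with no visible tumor, and no tumor shared a mouse with a benign sample.

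A ribosome holds 1 copy of most of its proteins, and cells balance their synthesis because unassembled ribosomal proteins are degraded. The proteins of the P-stalk recruit the elongation factors, and proteins of the small subunit line the path of the mRNA. The 5S particle (Rpl5, Rpl11 and 5S rRNA) is part of the large subunit and outside the ribosome binds Mdm2. Vertebrate ribosomal protein mRNAs start with a pyrimidine-rich stretch, the 5′ terminal oligopyrimidine (TOP) motif, through which mTORC1, a kinase downstream of HER2, controls their translation. Messenger RNA levels, measured here, do not report that control.

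Libraries held between 5240853 and 8588567 counts. Levels are given as CPM, counts scaled to library size with TMM factors. Calls of higher or lower expression required an adjusted p-value below 0.1 in the quasi-likelihood test of edgeR, run over 13191 genes. Erbb2, the gene for HER2, matched the labels, with benign and tumor means of 56.8 ± 11.2 and 7411 ± 5090 CPM (SD, n = 6 per group). Skeletal muscle markers took 3.2 to 7.8% of the counts in benign samples 3, 4 and 6, and at most 0.042% in each other sample. Lymphocyte markers took 0.15% in benign sample 1 and at most 0.002% elsewhere. All 7 white fat markers fell, from a summed share of 0.75 to 1.5% in benign tissue to at most 0.012% in tumors, and 5 of 6 luminal epithelial markers rose while 1 fell, with summed shares of 0.07 to 0.25% and 0.27 to 0.43%. In such bulk tissue, fewer cells of a type and less RNA per cell cannot be told apart.

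The core genes together took overlapping shares of the counts in the 2 tissues. Their share of all counts was lowest at 2.05%, had a median of 3.46% and reached 4.32% in benign tissue, and in tumors it ran from 3.32% over a median of 3.58% to 4.9%. The groups overlapped, with means of 3.3 ± 0.893% and 3.76 ± 0.591% (SD, n = 6). The 3 benign samples with muscle transcripts had the 3 lowest shares of all 12 samples (3.02%, 2.56% and 2.05%). For 60 of the 77 core genes (77.9%), benign samples 3, 4 and 6 all lay below benign samples 1, 2 and 5, against 10.8% of all genes tested. Benign sample 6 was the lowest of its group for 67 core genes, benign sample 1 the highest for 62, and tumor 6 the highest of the tumors for 66. The part of muscle and lymphocyte RNA in these levels was not tested.

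Counts of the large subunit genes exceeded those of the small subunit genes in every sample. Their ratio was 1.37 to 1.48 in benign tissue, with a median of 1.44, and 1.5 to 1.69 in tumors, with a median of 1.53, so the groups did not overlap. Tumors 1 and 5 had the highest ratios (1.69 and 1.66), and the other 4 tumors lay between 1.5 and 1.54. The ratio is a sum over the members and is given without a test.

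**Figure D1:**
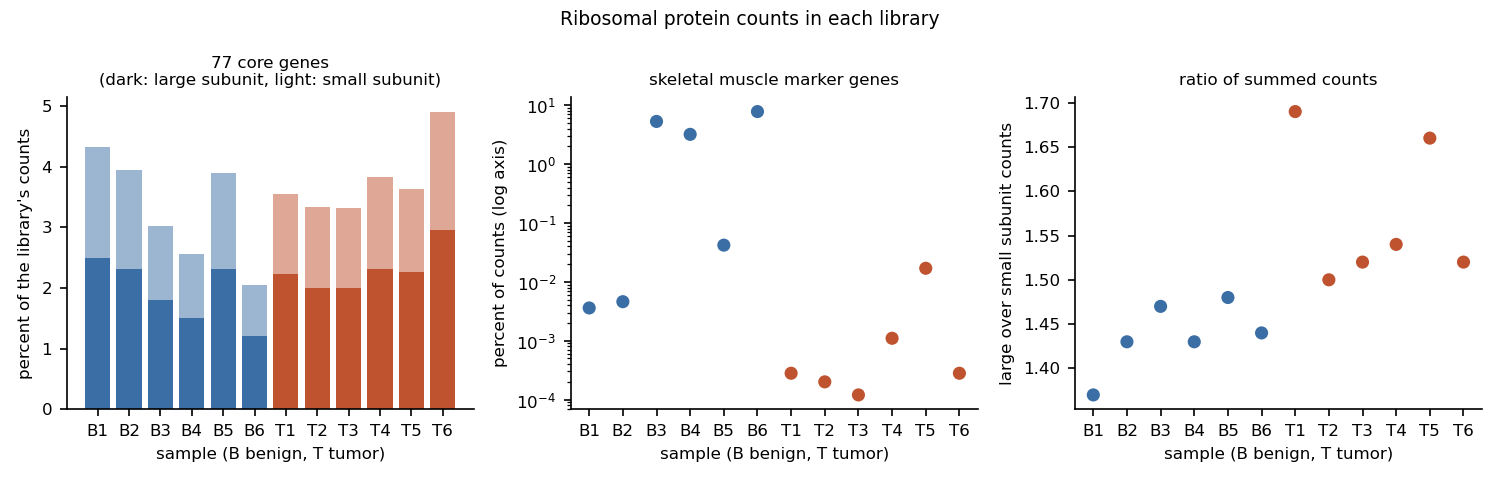
Left, percent of each library's counts from the 77 core genes, stacked by subunit. Middle, percent from skeletal muscle marker genes on a log axis. Right, large over small subunit counts, on an axis that does not start at 0. Benign samples 3, 4 and 6 combine the highest muscle shares with the lowest core shares, and all tumors lie at or above 1.5 in the ratio.

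Most core genes did not pass the test, and those that did had log2 fold changes from -0.55 to 0.84. All 77 passed the expression filter, and 12 (15.6%) were called, 9 higher and 3 lower in tumors. Over all genes tested the percentage called was 63.0, with 28.2% higher and 34.8% lower. The median log2 fold change of the core genes was 0.084 (all genes, -0.062), and the median size regardless of sign was 0.15 (all genes, 0.589). The precision was similar, with a median standard error of 0.158 for the core genes and 0.202 for all genes. For 75 of 77 core genes the 95% interval lay within a 2-fold change in either direction, as it did for 47.2% of all genes tested. Rpl5 and Rps27 were the exceptions. The groups overlapped for each of the 77 genes (0 without overlap), while 35.9% of all genes tested had no overlap. In the large subunit 7 genes were higher, 1 was lower and the median was 0.136, and in the small subunit 2 were higher, 2 were lower and the median was -0.016.

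The 5 core genes nearest to 0 came from both subunits. Rps3, which lines the mRNA entry channel, ranged from 489 to 835 CPM in benign tissue (median 697) and from 567 to 783 CPM in tumors (median 668), with a log2 fold change of -0.0031 (95% interval -0.33 to 0.32). Rpl4, a protein of the exit tunnel, had means of 1233 ± 223 and 1217 ± 144 CPM (interval -0.35 to 0.31). Rps15, Rps24 and Rpl34 had log2 fold changes of 0.0065, -0.016 and -0.0096.

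**Figure D2:**
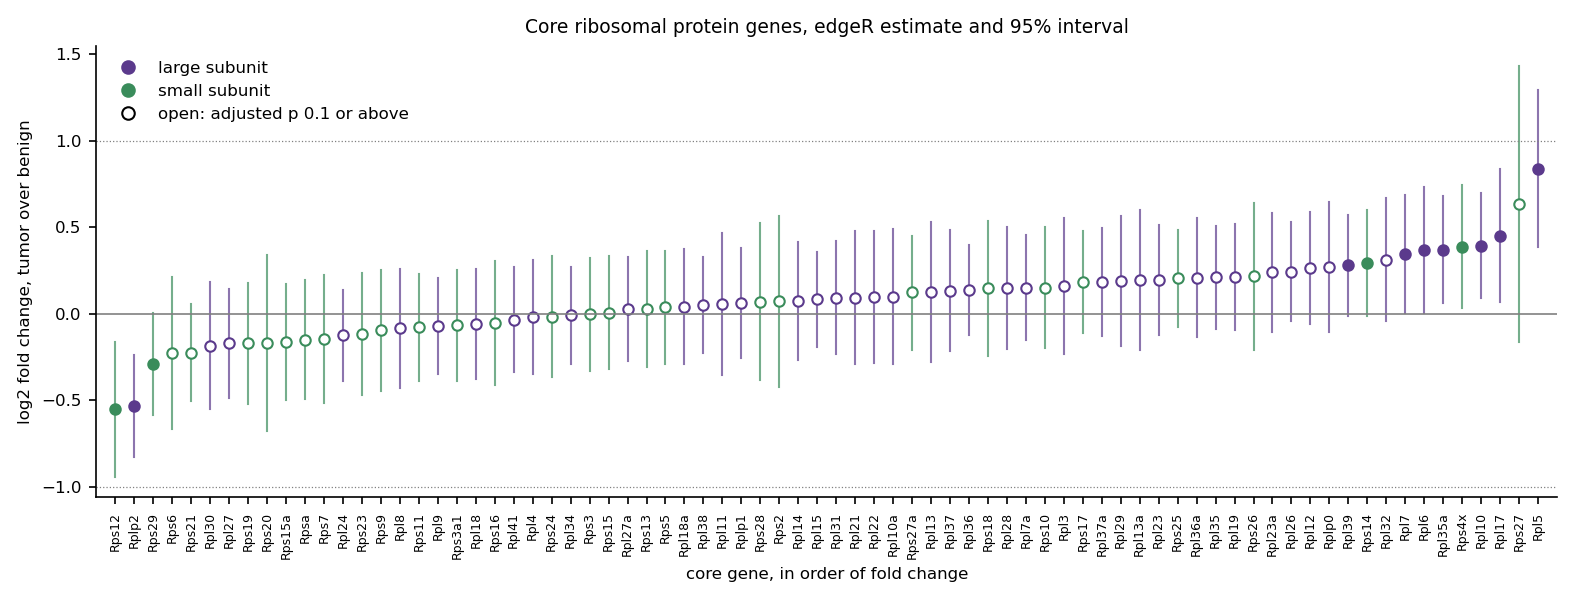
Log2 fold change (tumor over benign) of 76 of the 77 core genes in order (1 is not reported by name), with 95% intervals from edgeR. Filled points were called, and dotted lines mark a 2-fold change. Rps12 and Rplp2 stand at the low end and Rpl5 at the high end.

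The count of genes called higher changed with the samples used. Without benign samples 3, 4 and 6, 1 core gene was higher (Rpl5), 4 were lower (Rplp2, Rps12, Rps15a and Rps29) and the median was -0.068, with 26.7% of 13604 genes higher and 28.7% lower. The other 8 genes of the full comparison then had log2 fold changes of 0.11 to 0.27. Leaving out 3 samples also lowers the number of samples, and the part of muscle RNA in this change was not tested. Without benign sample 1 as well, which left 2 benign samples, no core gene was higher (0) and 2 were lower (Rplp2 and Rps12), with 23.5% of all genes tested higher and 25.8% lower. With single libraries left out, the number higher ran from 4 without benign sample 4 or 6 and 5 without tumor 6 to 14 without tumor 1, 15 without tumor 3, 16 without benign sample 1 and 17 without tumor 2, and the number lower from 2 to 4. Over all genes, 26.6% to 31.5% were then higher and 31.5% to 34.3% lower. The median of the core genes ran from 0.0042 without benign sample 6 to 0.19 without tumor 2. Upper-quartile scaling gave 5 higher and 2 lower (27.7% and 34.6% of all genes), DESeq2 gave 15 and 3 (30.6% and 33.4%), genes kept from 1 count in total gave 15 and 2 (27.9% and 33.4%), and a threshold of 0.05 gave 4 and 2 (24.8% and 31.5%). Rplp2 was called in all 25 alternatives run, Rpl5 and Rps12 in 24, Rpl10 and Rpl35a in 23, Rpl17 in 22, Rps4x in 19, Rpl6 and Rpl7 in 16, Rpl39 and Rps14 in 14 and Rps29 in 7.

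The P-stalk genes differed among themselves. Rplp2, which encodes 1 of the paired acidic stalk proteins, had 344, 451 and 521 CPM as lowest, median and highest value in benign tissue and 265, 305 and 375 CPM in tumors. Of the tumors, 5 lay below the lowest benign sample. edgeR gave a log2 fold change of -0.53 with a standard error of 0.14 (adjusted p = 0.005). Its dimer partner Rplp1 had medians of 725 CPM in both groups, with ranges of 498 to 853 CPM and 657 to 877 CPM and a log2 fold change of 0.061 (95% interval -0.26 to 0.38). Rplp0, the base of the stalk, ranged from 876 to 1539 CPM in benign tissue, and its tumor values ran from 1365 to 1850 CPM. Its log2 fold change of 0.27 was not called (adjusted p = 0.2 by edgeR).

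Taken within each sample, so that library scaling cancels, log2 Rplp2 over Rplp1 was -0.98 to -0.40 in benign tissue and -1.48 to -1.06 in tumors. The means were -0.68 ± 0.23 and -1.28 ± 0.15 (SD), and no tumor overlapped the benign samples (exact permutation test, two-sided, n = 6 per group, p = 0.00216, the smallest it can give, adjusted over 5 ratios to 0.00361). Log2 Rplp2 over Rplp0 fell from -1.55 ± 0.38 to -2.36 ± 0.23, again without overlap (exact permutation p = 0.00216, adjusted 0.00361, n = 6 per group). These 5 ratios were chosen after values had been seen, and the adjustment does not cover that choice. A single near-identical copy of the Rplp2 coding sequence is annotated, inside Wdr89 (99.4% identity), and its row had mean counts of 183 in benign tissue and 186 in tumors. With both rows added, the log2 fold change was -0.51 (adjusted p = 0.0072 by edgeR).

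**Figure D3:**
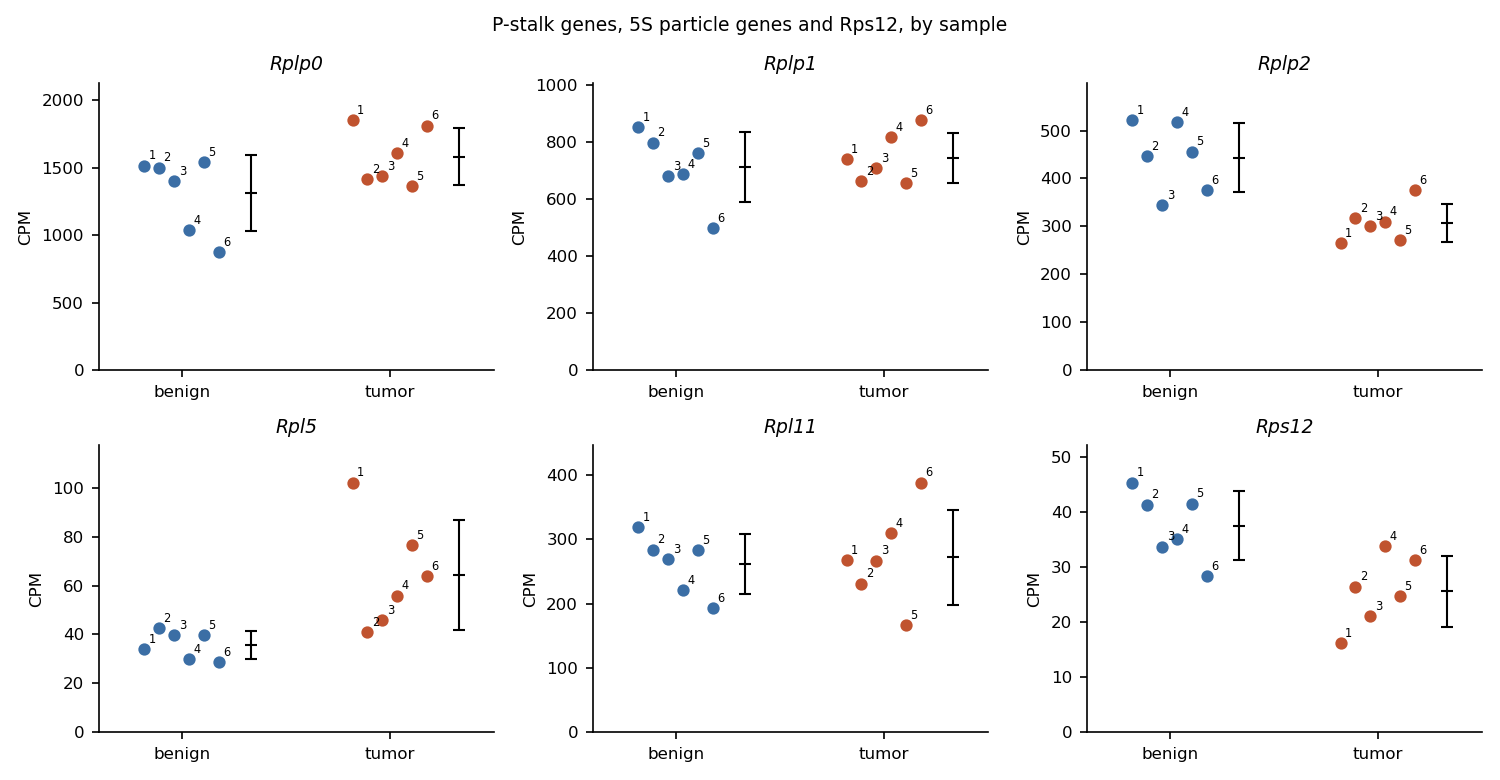
CPM of the P-stalk genes (Rplp0, Rplp1, Rplp2), the 5S particle genes (Rpl5, Rpl11) and Rps12 in each sample, numbered as in the labels, with mean ± SD beside each group of 6. Rplp2 and Rps12 are lower in tumors, Rplp1 and Rpl11 overlap throughout, and tumors 1 and 5 carry the highest Rpl5.

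Rpl5 had the largest log2 fold change among the core genes. It ran from 28.8 CPM over a median of 36.9 to 42.7 CPM in benign tissue, and from 41.1 CPM over 59.8 to 102 CPM in tumors. Of the tumors, 5 lay above the highest benign sample, and tumors 1 and 5 were highest (102 and 76.6 CPM). edgeR gave a log2 fold change of 0.84 with a standard error of 0.21 (adjusted p = 0.0041), and 0.60 without tumors 1 and 5 (adjusted p = 0.0093 by edgeR). Rpl11, which binds 5S rRNA together with Rpl5, had 193 to 319 CPM (median 276) in benign tissue and 167 to 388 CPM (median 267) in tumors. Its log2 fold change was 0.057 (95% interval -0.35 to 0.47). Log2 Rpl5 over Rpl11 was -3.21 to -2.73 in benign tissue, -2.60 to -2.47 in 4 tumors, and -1.40 and -1.12 in tumors 1 and 5, with no overlap between the groups (exact permutation p = 0.00216, adjusted 0.00361, n = 6 per group). The level of Rpl5 per length was low for a core gene. For 8 core genes, Rpl5, Rpl10 and Rps12 among them, the benign CPM per kilobase was under 20% of the core median of 635, and Rps2 was lowest at 9.41. Rpl5 has 5 annotated near-identical copies, Rpl10 9 and Rps12 22, none with a row in the table, and reads of these copies were not analysed here.

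Of the remaining large subunit genes, 6 were higher in tumors. Rpl17 at the exit tunnel rose from a median of 692 CPM (510 to 966) to 909 CPM (830 to 1316), with a log2 fold change of 0.45 (standard error 0.18, adjusted p = 0.045 by edgeR). Rpl10, which joins the large subunit last, rose from a median of 86.5 CPM (74.7 to 103) to 120 CPM (79.1 to 137), and 5 tumors lay above every benign sample. Its log2 fold change was 0.39 (adjusted p = 0.028 by edgeR). Rpl35a rose from 95.9 ± 18.8 to 124 ± 18.9 CPM (log2 fold change 0.37 with adjusted p = 0.041 by edgeR). Rpl6, Rpl7 and Rpl39 had log2 fold changes of 0.37, 0.35 and 0.28, with adjusted p-values of 0.078, 0.078 and 0.096 by edgeR. Those last 3 calls were lost when benign sample 4, benign sample 6 or tumor 6 was left out, with log2 fold changes of 0.22 to 0.36 then, and Rpl7 and Rpl39 also without benign sample 3 (0.34 and 0.25). Rpl23, another Mdm2-binding protein, had 420 ± 71.9 and 481 ± 77.7 CPM and was not called (log2 fold change 0.20 with adjusted p = 0.27 by edgeR), though it was without benign sample 1 (0.32, adjusted p = 0.088 by edgeR). Rpl38 (0.053), Rpl22 (0.096), Rpl3 (0.16) and Rpl36a (0.21) were not called.

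In the small subunit Rps12 fell the most. It had 28.4, 38.3 and 45.4 CPM as lowest, median and highest value in benign tissue and 16.2, 25.7 and 33.9 CPM in tumors. Of the tumors, 4 lay below the lowest benign sample, and tumor 1 was lowest. edgeR gave a log2 fold change of -0.55 with a standard error of 0.18 (adjusted p = 0.019), a call lost without tumors 1 and 5 (adjusted p = 0.12 by edgeR). Rps29 had 309 to 500 CPM (median 349) in benign tissue and 264 to 366 CPM (median 288) in tumors, with a log2 fold change of -0.29 (adjusted p = 0.086 by edgeR). Benign sample 1 was its highest value, and without it the log2 fold change was -0.13 (adjusted p = 0.36 by edgeR). That call was also lost without benign sample 2, 4 or 5 or any of tumors 1 to 5, with log2 fold changes from -0.31 to -0.19. It was lost as well with upper-quartile, total-count and DESeq2 size-factor scaling and with both other filters on low counts (-0.29 to -0.20).

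Rps4x, the X-linked Rps4 gene, rose from a median of 948 CPM (691 to 1188) to 1154 CPM (1063 to 1618), with a log2 fold change of 0.39 (adjusted p = 0.061 by edgeR). Rps14, near the platform of the subunit, rose from 458 ± 71.7 to 561 ± 82.7 CPM (log2 fold change 0.29 with adjusted p = 0.095 by edgeR). The Rps4x call was lost without benign sample 4 or 6 (log2 fold change 0.34 and 0.31), and the Rps14 call without benign sample 3, 4, 5 or 6 or tumor 6 (0.24 to 0.30). Rps6, the substrate of the S6 kinases, had 577 ± 84.6 and 493 ± 150 CPM and was not called (log2 fold change -0.23, 95% interval -0.67 to 0.21). Rpsa, which also encodes the laminin receptor, had 1176 ± 237 and 1061 ± 117 CPM (-0.15, interval -0.49 to 0.20). Rps21 was not called either (-0.22), but was without benign sample 3 (-0.28, adjusted p = 0.077 by edgeR).

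Neither Rps27a nor Fau, whose ribosomal proteins are made as fusions, was called. Rps27a, a ubiquitin fusion, had 406 ± 73.4 and 442 ± 72.9 CPM with a log2 fold change of 0.12. Fau, which encodes a ubiquitin-like protein fused to eS30, falls outside the symbol rule, as does Rack1, a scaffold on the small subunit. Their log2 fold changes were 0.052 (95% interval -0.33 to 0.43) and 0.020 (-0.33 to 0.37).

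Core genes of one sample shared part of their shift. The SD of log2 CPM within a group had a median over the core genes of 0.274 in benign tissue and 0.221 in tumors. When each gene was taken relative to the core mean of its sample, the medians were 0.11 and 0.095. That mean comes from the same genes, so part of the smaller spread follows from the centering. No other gene set centered on its own mean is shown for comparison. Of the 6 benign samples, 3 had no core gene at least 0.5 log2 units from the median of the other benign samples on this scale, and the other 3 had at most 2. Of all genes tested, 23.9% to 55.7% lay that far out in single benign samples. Centering removes the shift shared by the core genes and carries it into other genes. Percentages of core genes and of all genes on this scale are therefore not like for like. In tumor 5, 5 core genes lay at least 0.5 log2 units above and 5 that far below the median of the other tumors (13% of core genes, against 34.4% of all genes tested). The genes that were low there, named after their values were seen, included Rps20 (150 CPM, 302 to 444 in the other tumors), Rps6 (268 CPM, others 429 to 730), Rpl22 (191 CPM, others 305 to 439) and Rpl11 (167 CPM, others 231 to 388). Those high there included Rpl5, Rpl37 (348 CPM, others 202 to 316) and Rps27 (11.3 CPM, others 3.13 to 4.61). Tumor 1 had 4 such genes, Rpl5, Rpl6 and Rpl21 above and Rps18 below (5.19% of core genes, against 29.1% of all genes tested). Tumors 2, 4 and 6 had 0, against 25.7%, 19.4% and 41.2% of all genes tested. With ribosome-centred scaling, which sets the core mean equal in all samples, 6 core genes were called higher and 4 lower (21.7% and 34.1% of all genes tested). Those were Rpl5, Rpl7, Rpl10, Rpl17, Rpl35a and Rps4x, and Rplp2, Rps12, Rps21 and Rps29.

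**Figure D4:**
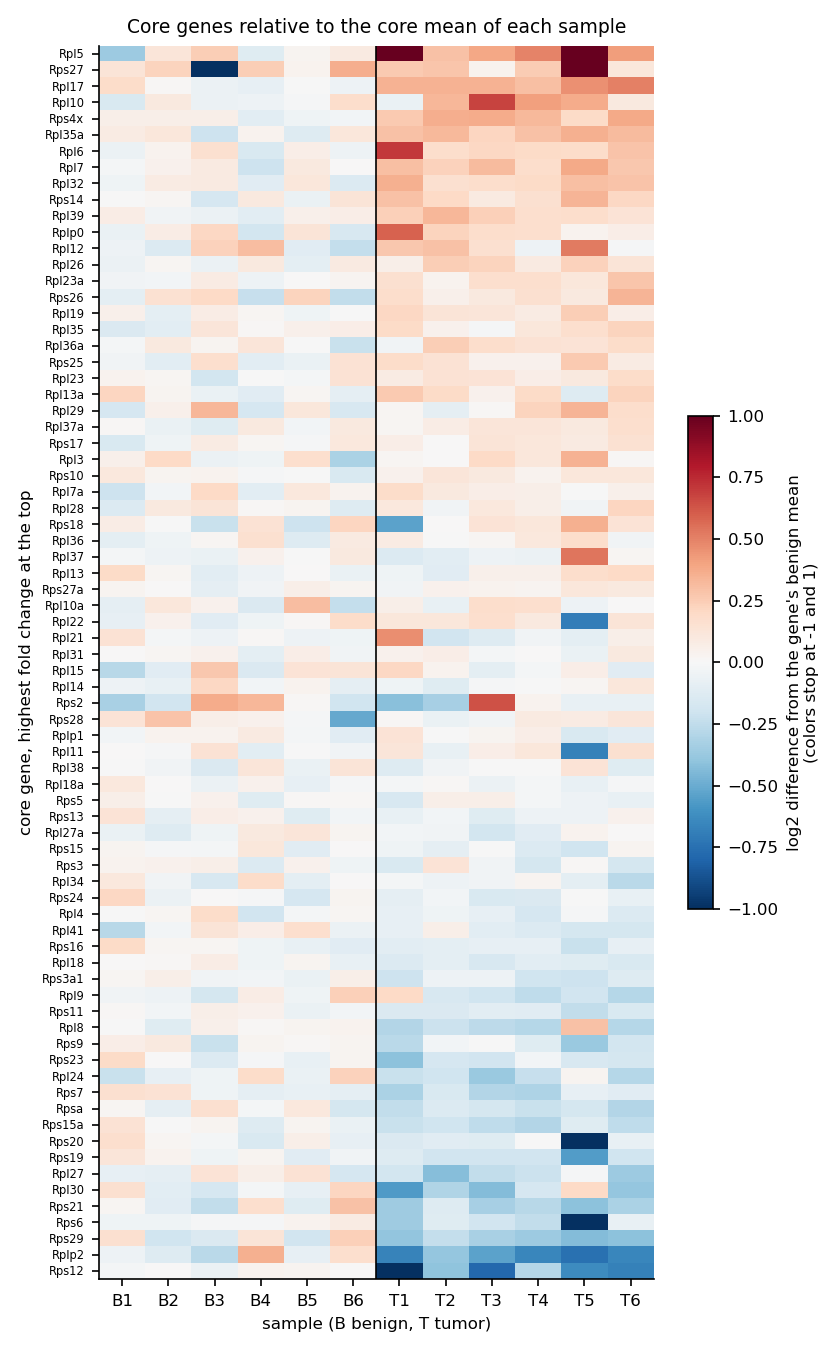
76 of the 77 core genes (1 is not reported by name; rows, highest fold change at the top) in the 12 samples (columns) on the core-centred scale. Color gives the log2 difference from the gene's benign mean and stops at -1 and 1. Rpl5 is highest in tumors 1 and 5, Rps12 and Rplp2 are low across tumors, and tumor 5 is low for Rps6 and Rps20.

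Start-site sequences are shown for the 9 members called in either direction that have an entry in the RefSeq promoter table (GRCm38.p6), first the core genes that fell, then those that rose, then the paralog Rps27l. Each runs 5′ to 3′ from 50 bases before the listed start to 20 after it. Capitals mark the longest run of C and T within 20 bases of that start, the first where runs tie. Where a gene had several listed starts (3 for Rpl35a and 2 for Rps27l), the start with the longest run is shown.
Rplp2: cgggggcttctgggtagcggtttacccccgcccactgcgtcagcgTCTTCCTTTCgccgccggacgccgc
Rps12: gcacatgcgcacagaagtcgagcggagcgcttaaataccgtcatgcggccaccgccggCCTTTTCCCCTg
Rpl5: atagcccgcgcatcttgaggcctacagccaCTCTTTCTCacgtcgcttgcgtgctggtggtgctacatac
Rpl10: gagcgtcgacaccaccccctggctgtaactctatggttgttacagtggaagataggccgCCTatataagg
Rps4x: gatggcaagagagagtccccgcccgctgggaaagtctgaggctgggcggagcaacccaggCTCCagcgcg
Rpl35a: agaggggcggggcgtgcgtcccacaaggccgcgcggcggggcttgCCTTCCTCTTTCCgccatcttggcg
Rpl6: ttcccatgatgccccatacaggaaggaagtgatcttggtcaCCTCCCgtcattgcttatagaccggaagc
Rpl39: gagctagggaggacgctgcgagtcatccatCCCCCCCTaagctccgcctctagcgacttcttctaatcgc
Rps27l: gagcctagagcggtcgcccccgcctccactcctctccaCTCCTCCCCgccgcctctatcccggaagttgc
They lie at chr7:141447601-141447670 (Rplp2, plus strand), chr10:23787190-23787259 (Rps12, minus strand), chr5:107900478-107900547 (Rpl5, plus strand), chrX:74270766-74270835 (Rpl10, plus strand), chrX:102189372-102189441 (Rps4x, minus strand), chr16:33056432-33056501 (Rpl35a, plus strand), chr5:121204451-121204520 (Rpl6, plus strand), chrX:37085203-37085272 (Rpl39, minus strand) and chr9:66946036-66946105 (Rps27l, plus strand). The marked runs have 10 bases in Rplp2 and 11 in Rps12, which fell, and 13 in Rpl35a, 9 in Rpl5, 8 in Rpl39, 6 in Rpl6, 4 in Rps4x and 3 in Rpl10, which rose. That of Rpl35a was the longest over its 3 listed starts. In Rpl39 the marked run begins at the edge of the window, with a t before it, and an equally long unmarked run follows the start. Listed starts can differ from those used in the tissue.

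Across the table, 57 of the 77 core genes had 67 promoter entries. A run of at least 8 pyrimidines within 20 bases of the start was found in 43.3% of these, against 16.3% of the 16294 entries of genes in the count table. In the window from 250 bases before to 50 after the start, read on both strands, the ETS-type motif CCGGAAG was found in 37.3% of core entries (14.4% of the table's genes), the YY1-type motif AAGATGGC in 10.4% (3.6%), the E-box CACGTG in 11.9% (9.1%), the Sp1-type motif GGGCGG in 61.2% (56.6%) and the CRE-type motif TGACGTCA in 7.46% (2.65%). These are counts of letters and not of bound sites. Among core genes not called in tumors, 24 of 57 entries held the pyrimidine run, beside 3 of 8 for genes called higher and 2 of 2 for genes called lower.

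Among the paralogs, Rps27l was called. It is a p53-responsive relative of Rps27 whose start site is printed above. It had 46.5, 63.9 and 78.4 CPM as lowest, median and highest value in benign tissue and 73.2, 103 and 185 CPM in tumors. Of the tumors, 4 lay above the highest benign sample, and tumors 1 and 5, which also had the highest Rpl5, were highest at 185 and 170 CPM. edgeR gave a log2 fold change of 0.91 with a standard error of 0.24 (adjusted p = 0.0056), and 0.57 without tumors 1 and 5 (adjusted p = 0.013 by edgeR). On the core-centred scale, tumors 1 and 5 both lay above all other samples for 5 of 77 core genes (6.49%, Rpl5, Rps14, Rpl19, Rpl32 and Rps25) and for 4.51% of all genes tested. Both lay below all other samples for 5 core genes as well (6.49%, Rps6, Rps9, Rps21, Rplp2 and Rps3a1), against 2.19% of all genes tested. The pair was singled out after values had been seen, those of Rpl5 among them, so these counts are no independent support. Percentages of core genes and of all genes on the core-centred scale are also not like for like. Without tumors 1 and 5, 10 core genes were higher and 1 was lower, beside 29.9% and 32.6% of all genes tested. Rps27 itself was low in both groups, with benign and tumor means of 3.26 ± 1.05 and 5.06 ± 3.08 CPM, and was not called (log2 fold change 0.64, 95% interval -0.16 to 1.43, adjusted p = 0.16 by edgeR). Without tumor 3 it was called (0.81, adjusted p = 0.091 by edgeR). Of 4 annotated near-identical copies, Rps27rt had a row, with at most 7 counts in any sample.

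Rpl3l, the paralog of Rpl3 typical of striated muscle, was abundant in the benign samples with muscle transcripts. It had 803, 465 and 1114 counts in benign samples 3, 4 and 6, 0 to 3 counts in the other benign samples and 0 to 2 counts in tumors. In benign sample 6, Rpl3l held 59.5% of the Rpl3l and Rpl3 counts. It did not pass the expression filter and was not tested, and with a floor of 3 counts per library its benign mean was at least 164-fold higher than the tumor level, a bound that rests on those 3 samples. Rpl39l, best known from the testis, had 1 to 25 counts in benign tissue and 0 to 2 in tumors, and was not tested either. With the same floor its benign mean was at least 4.79-fold above the tumor level, but benign sample 1, with 1 count, lay below that floor.

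The other 3 paralogs were expressed in all samples without a call. Rpl22l1, a relative of Rpl22 expressed at 32.1 to 77.7 CPM (median 47.4) in benign tissue, had 35.8 to 82 CPM (median 44.5) in tumors, with tumor 5 highest. Its log2 fold change was -0.051 (95% interval -0.55 to 0.45), and log2 Rpl22l1 over Rpl22 was -2.58 ± 0.35 and -2.70 ± 0.73 (exact permutation p = 0.768, n = 6 per group). In tumor 5 that ratio was -1.22, against -3.10 to -2.82 in the other tumors. Rpl36al, a close relative of Rpl36a, had 139 ± 11.6 and 147 ± 18.1 CPM (log2 fold change 0.089), and was called without tumor 2 (0.21, adjusted p = 0.098 by edgeR). Its ratio to Rpl36a did not pass the test (exact permutation p = 0.446, adjusted 0.557, n = 6 per group). Rpl7l1, a nucleolar relative of Rpl7 that acts in ribosome assembly, had 90.9 ± 14.4 and 97.2 ± 9.11 CPM (0.097).

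**Figure D5:**
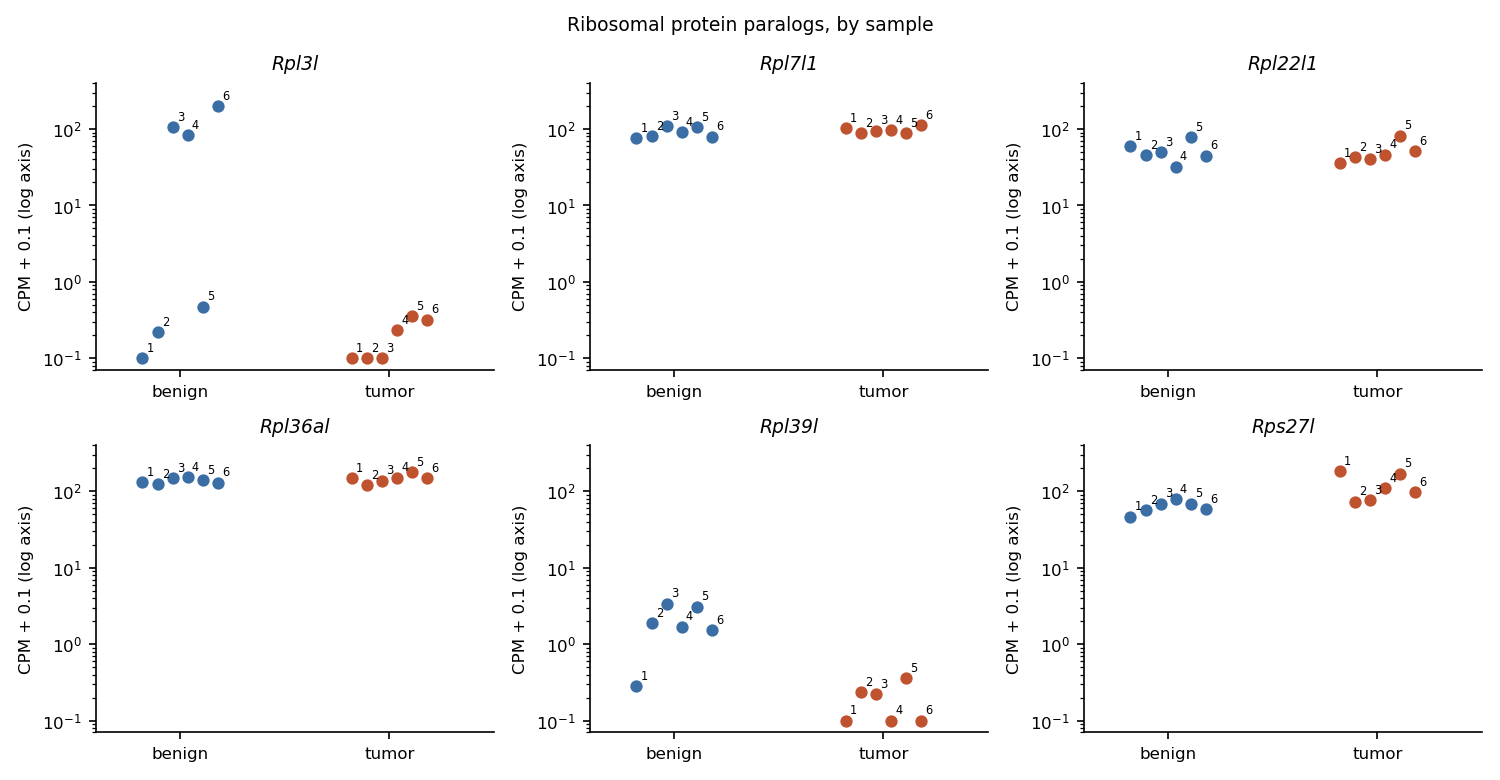
CPM + 0.1 of the 6 paralogs in each sample on a log axis, numbered as in the labels. Rpl3l is near 0 outside benign samples 3, 4 and 6, Rpl39l has a lower mean in tumors, and Rps27l is highest in tumors 1 and 5. All 6 overlap between groups.

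In 8 lists of other genes of translation and ribosome production, 28.6% to 72.7% of the tested genes were called, beside 63.0% of all genes (28.2% higher and 34.8% lower). Of 39 tested initiation factor genes, 5 were higher and 14 lower (median log2 fold change -0.151). The TOP gene Eif3h rose from 209 ± 16.1 to 318 ± 65.9 CPM (log2 fold change 0.60 with adjusted p = 0.0023 by edgeR), and Eif4g3, a scaffold of the cap-binding complex, rose by 0.82 (adjusted p = 0.0046 by edgeR). The poly(A)-binding Pabpc4 (-1.38) and the exchange factor subunit Eif2b3 (-1.04) fell. Without the muscle-bearing benign samples 3, 4 and 6, Pabpc4 was at -0.81. Of 15 elongation and termination genes, 2 were higher and 4 lower (0.115), with a rise of the release factor Gspt2 (1.48) and a fall of the ribosome rescue factor Pelo (-0.60). Of 21 other mRNAs known to carry a TOP motif, 2 were higher and 4 lower (-0.094). Eif4b rose from 444 ± 41.6 to 664 ± 151 CPM, and Nap1l1 (-1.38) and Vim (-3.61) fell. Vim, a gene of stromal cells, fell beside all 5 fibroblast markers, whose summed share was 0.24 to 0.73% in benign tissue and 0.033 to 0.069% in tumors, and their part in it was not tested.

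Of 65 ribosome biogenesis genes, 4 were higher and 23 lower (6.15% and 35.4%, all genes 28.2% and 34.8%), with a median of -0.163. The small subunit assembly factors Bysl (-1.5) and Rrp12 (-1.11) fell, and Las1l, a nuclease of rRNA processing, rose by 0.45 (adjusted p = 0.049 by edgeR), a call lost with ribosome-centred scaling (0.35, adjusted p = 0.26). Of 14 RNA polymerase I genes, 5 were higher and 2 lower (0.063), with rises of Taf1d (1.63) and Cd3eap (0.71) and falls of Polr1c (-0.49) and Polr1e (-0.66). Of 9 chaperones and importers of ribosomal proteins, none was higher (0) and 3 were lower, among them Ipo5 (-0.69) and Bccip (-0.42). Without the muscle-bearing benign samples 3, 4 and 6, Rrp12 was at -0.57 and Ipo5 at -0.44, and Bccip was not called (-0.22, adjusted p = 0.25 by edgeR). Of 16 genes of mTORC1 and TOP control, 5 were higher and 4 lower (-0.155). Eif4ebp1, the translation repressor that mTORC1 phosphorylates, fell from 160 ± 45.5 to 32.7 ± 3.99 CPM (log2 fold change -2.29 with adjusted p = 2.4e-07 by edgeR), and the mTORC1 inhibitor Tsc1 rose by 0.56, a call lost with ribosome-centred scaling (0.48, adjusted p = 0.13 by edgeR). Of 11 transcription factor genes with sites at ribosomal protein promoters, 6 were higher and 2 lower (0.216), led by Gabpb2 (0.87) and Mxi1 (0.77) and by Tbpl1 (-0.74) and Mnt (-0.59).

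The proteins of the mitochondrial ribosome, a separate set of genes, are given beside them. Of 77 mitochondrial ribosomal protein genes tested, 1 was higher (1.3%, all genes 28.2%) and 61 were lower (79.2%, all genes 34.8%), with a median log2 fold change of -0.556. The 77 cytosolic core genes had 11.7% higher and 3.9% lower, and the difference between the 2 sets was not tested.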

How the data were processed

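RNA of 6 tumors and 6 benign samples was enriched for poly A and sequenced by the authors, who quantified transcripts with Salmon after Trim Galore and deposited whole-number estimated counts for each gene (build mm10 per the labels, the annotation and versions not given in the sources used here). Salmon divides reads that fit several transcripts, so genes with near-identical copies are uncertain. The deposited counts were filtered with filterByExpr (minimum count 10, total 15), scaled by TMM and compared with edgeR 4.0.16 (R 4.3.3), with Benjamini-Hochberg adjustment over 13191 genes, threshold 0.1. Log2 CPM used 2 added counts. Copies were sought with blastn 2.17.0 in GENCODE M21 transcripts (at least 95% identity over 80% of the coding sequence), and DESeq2 1.42.0 was an alternative. Exact permutation tests enumerated 924 regroupings. In simulated counts for the tumor and benign design with 13191 genes, edgeR recovered 59% of 100 genes changed by 1 on the log2 scale and 94% of 100 changed by 2. Of the calls there, 9.47% were false with edgeR and 21.4% with DESeq2. Changes below 1, the size of all core gene changes called here, were not simulated. Members and lists were chosen with earlier results of these data known. Named genes were the paralogs and their parents, called core genes (the 8 largest rises and falls), the 5 nearest 0, the 5 farthest above and below the core mean, a list of members with known roles, and the 2 largest rises and falls called in each list. No column was without a sample (0 columns). Some genes are not reported here by name.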

Additional observations from a re-analysis of the deposited data

Results flagged for a closer look

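Within a group of 6, 10 values lay farther from their group than Dixon's 95% limit allows, among 78 groups checked, where chance alone flags about 1 in 20. The values come from the same libraries, so the flags are not independent of each other. Tumor 6, the highest of the tumors for 66 of 77 core genes, held 6 of them, all the highest of the tumors. Its core genes took 4.9% of the counts, against at most 3.82% in the other tumors. Its levels were 328 CPM for Rpl39, 1316 CPM for Rpl17, 805 CPM for Rps15, 1043 CPM for Rps24 and 634 CPM for Rpl23. Tumor 5 was far above the other tumors for Rpl22l1 (82 CPM, next highest 50.9) and Rps27 (11.3 CPM, next highest 4.61). Benign sample 1 was high for Rps29 (500 CPM, next highest 365), and benign sample 4 for the pseudogene Rps4l (24.4 CPM, next highest 12.5).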

How the results depend on the processing

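The number of core genes called higher, 9, was the value that moved most with the processing: 5 with upper-quartile scaling, 15 with DESeq2, 15 with genes kept from 1 count in total, 4 at a threshold of 0.05, 1 without benign samples 3, 4 and 6, 0 without benign samples 1, 3, 4 and 6, and 4 to 17 with single libraries left out. The number lower, 3, was 1 without tumors 1 and 5 (Rplp2). The alternatives that added copies or left out benign samples 1, 3, 4 and 6 or tumors 1 and 5 were chosen after seeing the data. The causes were not tested. DESeq2 called the 12 core genes that edgeR called, in the same direction, and 6 others. Depth limits Rps27, with 10 to 34 counts per benign sample and 23 to 88 per tumor.

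With the replicate number as a block, 3 core genes were higher (Rpl5, Rpl10 and Rpl35a) and 2 lower (Rplp2 and Rps12), beside 26.3% and 32.1% of all genes tested. Las1l was then at 0.40 (adjusted p = 0.12 by edgeR). The labels number both groups from 1 to 6, but deviations of same-numbered samples correlated by -0.12 to 0.10, and no sample correlated best with its own number, so the numbers were not treated as pairs.

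Log2 fold changes that turned sign belonged to genes that were not called. With DESeq2, Rpl34 was at 0.024, Rpl4 0.014, Rps24 0.018 and Rps3 0.030, and with its size factors in edgeR 0.023, 0.014, 0.018 and 0.030. With at least 1 count in total, Rpl22l1 was at 0.035, Rpl34 0.078, Rpl4 0.068, Rps24 0.074 and Rps3 0.084. With at least 10 counts in every sample they were 0.0029, 0.044, 0.033, 0.038 and 0.049, and with total counts 0.021, 0.069, 0.054, 0.062 and 0.068. The replicate block gave Rpl34 0.0072 and Rps3 0.014. Ribosome-centred scaling gave Fau -0.012, Rack1 -0.042, Rpl11 -0.026, Rpl36al -0.0081, Rpl38 -0.026, Rpl7l1 -0.0011, Rplp1 -0.0048 and Rps15 -0.074. Without benign samples 3, 4 and 6, Fau was at -0.14, Rack1 -0.15, Rpl11 -0.073, Rpl22 -0.035, Rpl3 -0.086, Rpl38 -0.055, Rplp1 -0.068, Rps15 -0.10 and Rps27a -0.041. With single libraries left out, the ranges were -0.027 to 0.23 for Fau, -0.062 to 0.13 for Rack1, -0.017 to 0.23 for Rpl11, -0.19 to 0.10 for Rpl22l1, -0.078 to 0.13 for Rpl34, -0.086 to 0.096 for Rpl4, -0.023 to 0.17 for Rplp1, -0.061 to 0.13 for Rps15, -0.082 to 0.16 for Rps24 and -0.079 to 0.12 for Rps3.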

Other observations

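Rps4l, which the annotation lists as a pseudogene and which was therefore no member, had 41 to 137 counts in benign samples and 0 to 6 in tumors. Its levels were 13.3 ± 5.74 and 0.343 ± 0.286 CPM (SD, n = 6), with no overlap and a log2 fold change of -5.15 (adjusted p = 5.2e-06 by edgeR), while Rps4x was higher in tumors.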
